A study of Mus musculus with 12 samples.

Results

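The neurotrophins Bdnf and Ntf3 and the receptors Ntrk2, Ntrk3, Ngfr and Sort1 were followed in ribosome-bound mRNA of hippocampal CA1 pyramidal neurons. The 6 genes were taken by symbol from the 24079 genes of the deposited count table, and all 6 passed the filter on low counts that left 17823 genes. The question was whether their mRNAs on ribosomes differ between Fmr1-/y mice, the mouse model of fragile X syndrome that lacks the RNA-binding protein FMRP, and wild-type littermates. There were 6 wild-type (Wfs1-CreERT2:RiboTag) and 6 knockout (Wfs1-CreERT2:RiboTag with Fmr1-/y) libraries, and every library was made from pooled hippocampi of 4 to 6 male C57BL/6J mice aged 2 to 6 months. All mice of both groups carried a tamoxifen-inducible Cre driven by Wfs1 and a floxed Rpl22 allele that gains an HA tag on recombination. They received tamoxifen (100 mg/kg on 3 days) and were used 1 week later. The pulldown was made from whole hippocampus, so that RNA from cells without the tag can be carried over, and no input fraction was analysed here. In such samples fewer cells of a type and less ribosome-bound RNA per cell cannot be told apart.

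Neurotrophins are secreted growth factors that are made as precursors and cleaved to mature dimers. BDNF acts on the receptor tyrosine kinase TrkB, encoded by Ntrk2, and NT-3, encoded by Ntf3, acts on TrkC, encoded by Ntrk3. The receptor p75NTR, encoded by Ngfr, binds all mature neurotrophins and, together with sortilin, encoded by Sort1, their uncleaved precursors, while sortilin also sorts BDNF inside the cell. In the hippocampus BDNF and TrkB are known for their part in long-term potentiation and in the growth and maintenance of dendritic spines.

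Bdnf (Entrez 12064) lies on chromosome 2 from 109674700 to 109727043 and Ntf3 (Entrez 18205) on chromosome 6 from 126101412 to 126166772 (RefSeq genes on GRCm38, the build also called mm10). Ntrk2 (Entrez 18212) spans chromosome 13 from 58806472 to 59133970, Ntrk3 (Entrez 18213) chromosome 7 from 78179986 to 78581034, Ngfr (Entrez 18053) chromosome 11 from 95568818 to 95587698 and Sort1 (Entrez 20661) chromosome 3 from 108283974 to 108361519. The counts are per gene and do not separate transcripts. This matters for Bdnf, whose alternative first exons are spliced to the same coding exon, and for Ntrk2 and Ntrk3, which are known to make full-length kinase receptors and truncated forms without the kinase. GENCODE M21 lists 11 coding transcripts for Bdnf, 7 for Ntrk2, 6 for Ntrk3, 3 for Ntf3, 2 for Sort1 and 1 for Ngfr.

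RefSeq promoter windows of 300 bases (250 before and 50 after a transcript start, GRCm38.p6) were found for Bdnf (7 starts), Ntf3 (2), Ntrk2 (1) and Ngfr (1). The 60 bases before 3 of the Bdnf starts (the first, the start with a match to the core of the cAMP response element and the start with the lowest G and C content) show how unlike the starts are that feed the same count, and those before the start of the receptor gene Ntrk2 stand beside them. Sequences run 5′ to 3′ on the strand of the gene, here the plus strand, and capitals mark a match to TGACG or its reverse CGTCA, the short core of the cAMP response element.
Bdnf start 1 (chr2:109674640-109674699): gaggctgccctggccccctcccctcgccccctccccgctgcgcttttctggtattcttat
Bdnf start 3 (chr2:109692376-109692435): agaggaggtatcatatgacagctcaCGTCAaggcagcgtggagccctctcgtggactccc
Bdnf start 6 (chr2:109709323-109709382): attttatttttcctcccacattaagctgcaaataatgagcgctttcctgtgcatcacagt
Ntrk2 start 1 (chr13:58806509-58806568): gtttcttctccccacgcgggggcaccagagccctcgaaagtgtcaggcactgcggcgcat

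The starts differed in composition. Over the 300 bases the G and C content was 57.3% at Bdnf start 1, 48.7% at Bdnf start 3, 38.7% at Bdnf start 6 and 61.3% at the Ntrk2 start. The core TGACG, sought on both strands like all motifs here, was found in 1 of the 7 Bdnf windows, at start 3, and in none of the 4 windows of the other genes, against 20.8% of the 32851 promoter windows of the same length. The full element TGACGTCA, which contains this core, was in no window of these genes and in 1.79% of all windows. The AP-1 letters TGANTCA were found in the window of Bdnf start 2 and in 7.81% of all windows. The E-box letters CACGTG, the same on both strands, were in the window of Ntf3 start 1 and in 7.15% of all. These matches are letters only and say nothing of binding in these cells.

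Libraries held 39400980 to 55745464 reads on genes in wild type and 43106629 to 65565479 in Fmr1-/y. As the labels require, Fmr1 had 1971 to 2608 reads in every wild-type library, whereas 5 Fmr1-/y libraries held 0 and the remaining library 1. Levels are given as CPM, the count scaled to a library of 1000000 reads with edgeR's TMM factors. All 6 listed CA1 pyramidal markers were detected, and their summed level was 8095 to 10060 (wild type) and 7862 to 9311 CPM (Fmr1-/y). All 6 had a negative log2 fold change, with a median of -0.10. In edgeR 1 of them (Wfs1) was lower at an unadjusted p under 0.05, beside 3.67% of all genes tested. None had an adjusted p under 0.05. Wfs1, whose promoter drives the Cre, averaged 1272 ± 175 CPM (SD, n = 6) in wild-type and 1054 ± 103 CPM (SD, n = 6) in Fmr1-/y libraries (log2 fold change -0.27, unadjusted p = 0.0083, adjusted p = 0.410 in edgeR). Markers of cells that should not carry the tag were also read in every list, with none at 0 in all libraries. The astrocyte list (8 genes) summed to 1343 to 1738 (wild type) and 1510 to 2415 CPM (Fmr1-/y), and the oligodendrocyte list (6 genes) to 1085 to 1629 and 978 to 1491 CPM.

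None of the 6 genes passed the test. The quasi-likelihood test of edgeR, adjusted by Benjamini-Hochberg over all genes, called 0.0224% of all genes at an adjusted p under 0.05 and 0 of the 6. Standard errors (SE) and p-values below come from this fit. At an unadjusted p under 0.05 the share was 7.96% of all genes and again 0 of the 6, and DESeq2, which called 0.571% of the genes it gave an adjusted p, called 0 of the 6 as well. The levels of both genotypes overlapped for all 6 genes, where 0.623% of all genes showed no overlap. The median log2 fold change over the 6 genes was -0.02, beside 0.0042 over all genes tested. The levels were measured to different precision, and the intervals below say how large a difference each would allow.

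**Figure D1:**
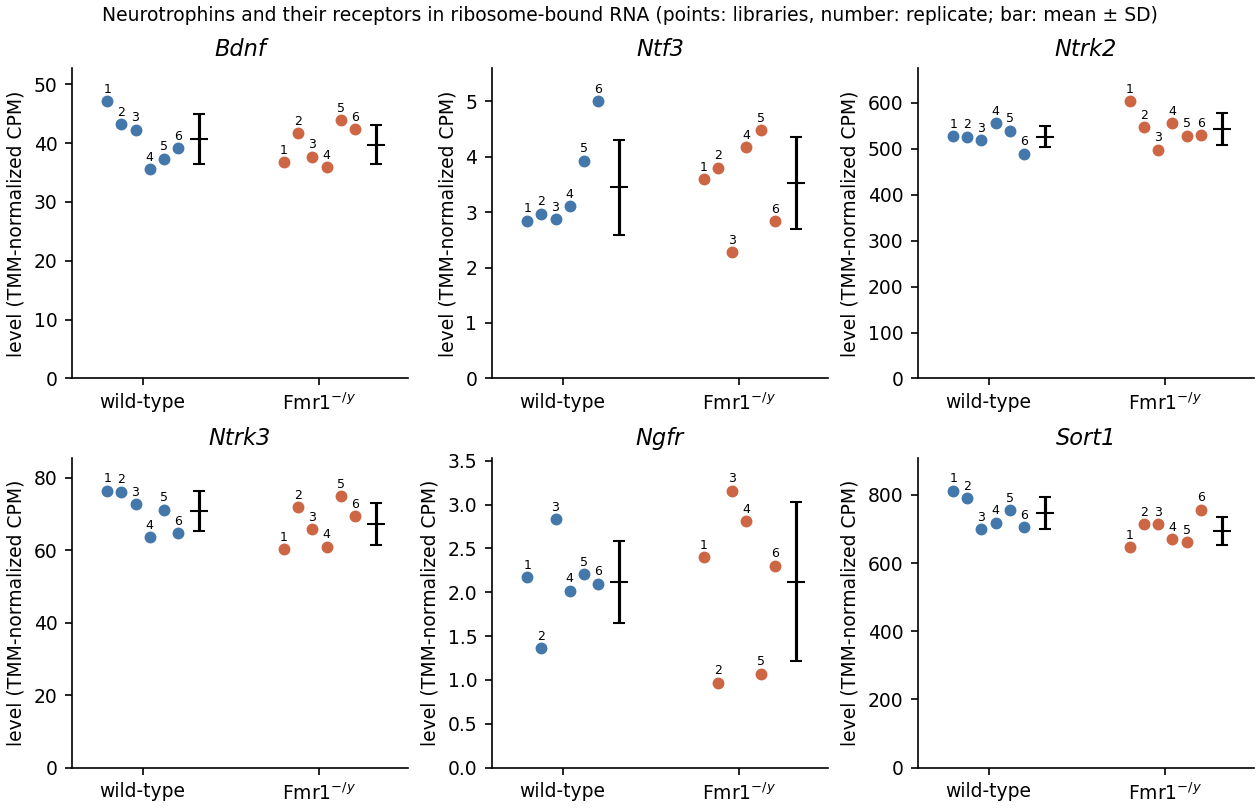
Level of each gene (TMM-normalized CPM, linear axis from 0) in 6 wild-type and 6 Fmr1-/y libraries, with the replicate number beside each point and the mean ± SD as a bar. The genotypes overlap in all 6 panels. The spread is widest for Ngfr in Fmr1-/y libraries, from 0.971 to 3.16 CPM.

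Of the ligands, Bdnf ran from 35.6 CPM over a median of 40.7 CPM to 47.1 CPM in wild-type libraries. In Fmr1-/y libraries it ran from 35.9 CPM over 39.7 CPM to 44.0 CPM. All Fmr1-/y libraries lay inside the wild-type range, and 3 of the 6 were above the wild-type median. The means were 40.8 ± 4.24 (wild type) and 39.8 ± 3.36 CPM (Fmr1-/y) (SD, n = 6 each), and the fitted ratio was 97.5% (log2 fold change -0.04 ± 0.08 SE, adjusted p = 0.955 in edgeR). The 95% interval of the difference reached from 86.7% to 110% of wild type. Wild-type replicate 1, the highest library, set the sign of this small difference, which was 0.0088 on the log2 scale without it.

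Ntf3 was a low gene, with 101 to 292 reads per library. Its wild-type levels were 2.84 CPM at the lowest, 3.04 CPM at the median and 4.996 CPM at the highest. In Fmr1-/y libraries they were 2.28, 3.70 and 4.48 CPM. Replicate 6 was highest among wild-type libraries, and 2 Fmr1-/y libraries, replicates 3 and 6, lay below the lowest wild-type library. The difference was 103% of wild type (log2 fold change 0.04 ± 0.19 SE, adjusted p = 0.986 in edgeR) with an interval from 77.9% to 135%. Its sign turned when any of 5 libraries was left out, with log2 fold changes of -0.01 without wild-type replicate 1, -0.0012 without replicate 2, -0.01 without replicate 3, -0.02 without Fmr1-/y replicate 4 and -0.04 without Fmr1-/y replicate 5.

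Of the kinase receptors, Ntrk2 was counted deeply, with 19597 to 34486 reads per library. It ran from 489.5 CPM over 527 CPM to 557 CPM in wild-type libraries and from 498 CPM over 538 CPM to 603 CPM in Fmr1-/y libraries. Replicate 1 was the 1 Fmr1-/y library above the wild-type range, and 5 of the 6 lay above the wild-type median. The means differed by less than the spread (log2 fold change 0.05 ± 0.06 SE, adjusted p = 0.910 in edgeR), and the interval reached from 95.2% to 112% of wild type. Ntrk2 is also a known astrocyte gene, where the truncated receptor prevails. The summed astrocyte markers ranged from 1343 to 1738 CPM in wild-type and from 1510 to 2415 CPM in Fmr1-/y libraries. No correlation of this sum with Ntrk2 was computed. All 8 astrocyte markers had a positive log2 fold change, with a median of 0.22. In edgeR 4 of them were higher at an unadjusted p under 0.05, beside 4.29% of all genes tested. None had an adjusted p under 0.05. The list was chosen with earlier results of these data known, so no conclusion on an excess is drawn. The part of astrocytes in the level of Ntrk2 was not tested.

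Ntrk3 ran from 63.6 CPM over 71.9 CPM to 76.4 CPM in wild-type libraries and from 60.3 CPM over 67.7 CPM to 74.9 CPM in Fmr1-/y libraries. Replicates 1 and 4 of Fmr1-/y were below the lowest wild-type library, and 5 of the 6 were below the wild-type median. The means were 70.8 ± 5.55 CPM and 67.2 ± 5.89 CPM (SD, n = 6 each), and the fitted ratio was 94.98% with an interval from 85.5% to 105.5% (log2 fold change -0.07 ± 0.07 SE, adjusted p = 0.872 in edgeR).

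Of the precursor receptors, Ngfr was thinly counted, with 49 to 143 reads per library. In adult forebrain it is known best from cholinergic neurons and from cells of vessels and nerves. Its wild-type levels ran from 1.37 CPM over 2.14 CPM to 2.83 CPM, and its Fmr1-/y levels from 0.971 CPM over 2.35 CPM to 3.16 CPM. Fmr1-/y libraries lay on both sides of the wild-type range, with replicates 2 and 5 below it and replicate 3 above it. The spread within Fmr1-/y libraries was 42.7% of the mean, against 22.1% in wild type. The difference was 99.7% of wild type (log2 fold change -0.0048 ± 0.27 SE, adjusted p = 0.999 in edgeR), and its interval, from 66.8% to 149%, was the widest of the 6. The sign of this difference turned when any of 5 libraries was left out, with log2 fold changes of 0.0032 without wild-type replicate 1, 0.10 without replicate 3, 0.0070 without replicate 5, 0.14 without Fmr1-/y replicate 2 and 0.13 without replicate 5. The 6 mural and fibroblast markers summed to 120 to 140 (wild type) and 106 to 180 CPM (Fmr1-/y). No correlation of this sum with Ngfr was computed. The part of these cells in the level of Ngfr was not tested.

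Sort1, the other precursor receptor, had 28231 to 43672 reads per library. It ran from 700 CPM over 736 CPM to 812 CPM in wild-type libraries and from 647 CPM over 692 CPM to 757 CPM in Fmr1-/y libraries. Replicates 1, 4 and 5 of Fmr1-/y were below the lowest wild-type library, and 5 of the 6 were below the wild-type median. It had the smallest p of the 6 genes and the rank 2239 among all genes by p. The means were 746 ± 46.6 CPM and 694 ± 41.3 CPM (SD, n = 6 each), and the fitted ratio was 93.0% with an interval from 85.4% to 101% (log2 fold change -0.11 ± 0.06 SE, unadjusted p = 0.089 and adjusted p = 0.707 in edgeR).

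**Figure D2:**
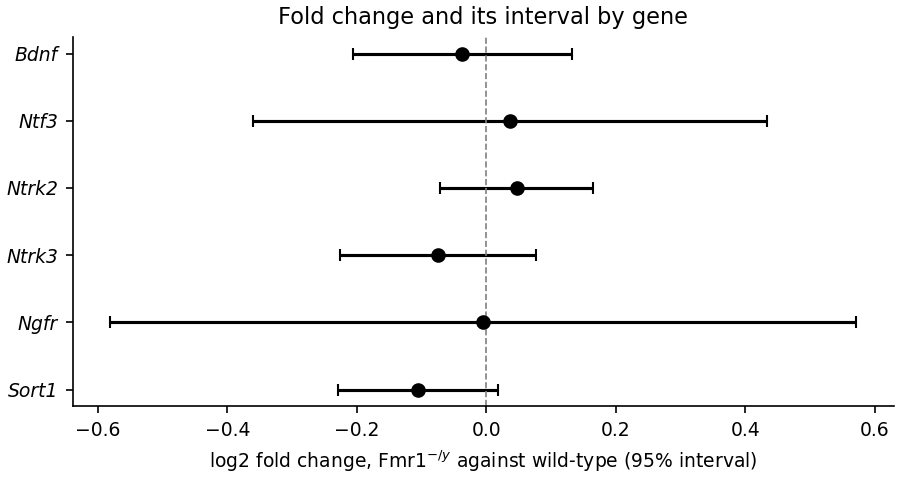
Log2 fold change of each gene, Fmr1-/y against wild type, from edgeR's fit over all genes, with its 95% interval (n = 6 libraries per genotype). All 6 intervals include 0. They are narrow for the deeply counted Ntrk2 and Sort1 and wide for Ntf3 and Ngfr.

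Compared per length of exon sequence, the order of the levels was Sort1, Ntrk2, Bdnf, Ntrk3, Ntf3 and Ngfr. The mean over 12 libraries, in RPKM (CPM divided by the exon length in kilobases, from GENCODE), was 95.1 for Sort1, 27.7 for Ntrk2, 6.48 for Bdnf, 2.29 for Ntrk3, 2.04 for Ntf3 and 0.615 for Ngfr. Each gene was above the next in the order in all 12 libraries, except that Ntrk3 was above Ntf3 in 8 of 12, so these neighbours were not separated. With the length of the longest coding transcript in place of all exons, the order was the same, and Ntrk3 was above Ntf3 in 11 of 12. The ratio of Sort1 to Ntrk2 had a median of 3.50 by exon length and of 1.76 by longest transcript, and the Ntrk2 exons that GENCODE lists add up to 19292 bases against 8744 in the longest coding transcript.

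The balance of ligand and receptor was compared within each library, where no scaling between libraries enters. The number of Bdnf reads per 100 Ntrk2 reads was 6.39 to 8.93 in wild type (median 8.08) and 6.10 to 8.32 in Fmr1-/y (median 7.60). For Ntf3 per 100 Ntrk3 reads the ranges were 3.73 to 7.75 (median 4.43) and 3.48 to 6.85 (median 5.65). Neither difference between the genotypes exceeded the spread between libraries. The log2 difference was -0.08 for Bdnf to Ntrk2 (pooled SD 0.18, adjusted p = 0.869) and 0.10 for Ntf3 to Ntrk3 (pooled SD 0.39, adjusted p = 0.869), in a two-sided exact permutation test with adjustment over 4 ratios.

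Reads of Ntrk2 per read of Ntrk3 ranged from 6.90 to 8.76 in wild type and from 7.06 to 10.01 in Fmr1-/y, with 5 of 6 Fmr1-/y libraries above the wild-type median. The log2 difference of 0.12 was below the pooled SD of 0.16 (adjusted p = 0.869, exact permutation test). The number of Ngfr reads per 100 Sort1 reads was 0.175 to 0.406 in wild type and 0.138 to 0.444 in Fmr1-/y, with a log2 difference of 0.0018 (adjusted p = 1.0, exact permutation test). The smallest p this exact permutation test can reach here is 0.0022. The difference of Ngfr to Sort1 turned its sign without wild-type replicate 1 (-0.0090) or 2 (-0.13) and without Fmr1-/y replicate 1 (-0.08), 3 (-0.13), 4 (-0.12) or 6 (-0.02).

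**Figure D3:**
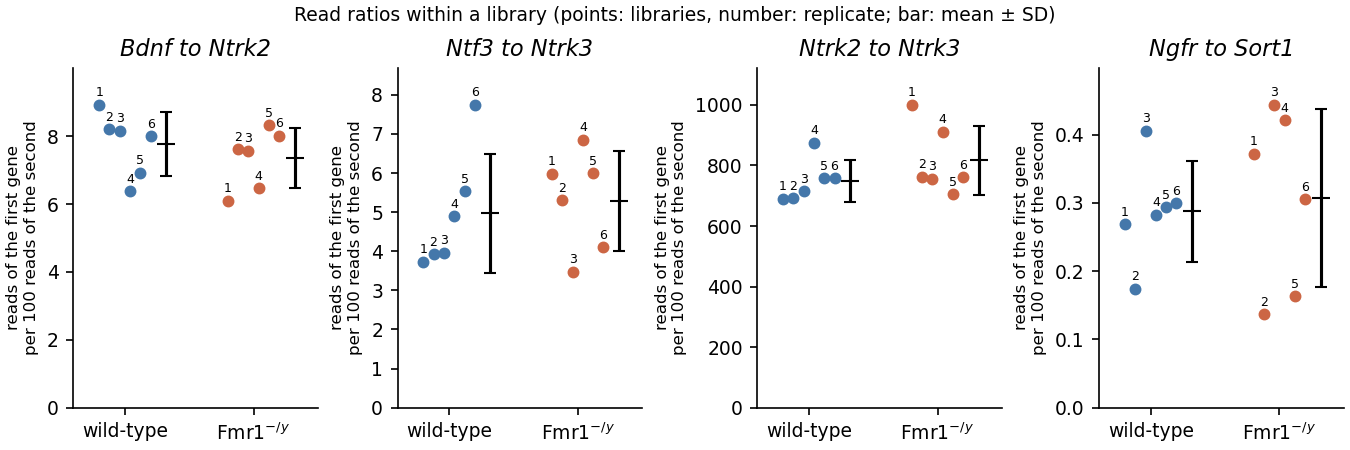
Reads of the first gene per 100 reads of the second within each of 12 libraries (linear axes from 0, replicate numbers beside the points, mean ± SD as bars). The genotypes overlap in each of the 4 ratios. Wild-type replicate 4 and Fmr1-/y replicates 1 and 4 are highest for Ntrk2 to Ntrk3.

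Bdnf and Ntrk3 varied together across libraries, in both genotypes. Over 12 libraries Pearson's r of their log2 CPM was 0.87 (permutation p = 0.00059, adjusted over 15 pairs of genes 0.0089) and Spearman's rho 0.88 (permutation p = 0.00042, adjusted 0.0063). Within wild-type libraries r was 0.83 and within Fmr1-/y libraries 0.95 (n = 6 each). Without wild-type replicates 1 and 4, the libraries farthest from the median of Bdnf, r was 0.84. No other pair of the 15 had an adjusted p under 0.05, and the next highest r was 0.61, for Ntrk3 and Sort1 (permutation p = 0.035, adjusted 0.26, and 0.35 for r without Fmr1-/y replicates 1 and 4). The points share their libraries, and with them the composition of each pulldown.

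The summed CA1 pyramidal markers moved with both genes, though not in every library. These relations were chosen after the values were seen. The adjustment over 4 relations does not cover that choice, so the p-values here serve as description only. Over 12 libraries r of the log2 sum was 0.76 with Bdnf (permutation p = 0.0052, adjusted over 4 relations 0.0063, rho 0.68 with permutation p = 0.019, adjusted 0.019). With Ntrk3 r was 0.85 (permutation p = 0.00062, adjusted 0.0025, rho 0.79 with permutation p = 0.0035, adjusted 0.014). Without wild-type replicate 1 and Fmr1-/y replicate 4, the farthest from the median sum, r was 0.59 and 0.77. Within wild-type libraries r was 0.74 with Bdnf and 0.85 with Ntrk3, and within Fmr1-/y libraries 0.90 and 0.84 (n = 6 each). Camk2a made up 65.5% to 69.6% of the sum, and without it r was 0.74 with Bdnf (permutation p = 0.0063, adjusted 0.0063, rho 0.69 with permutation p = 0.017, adjusted 0.019) and 0.78 with Ntrk3 (permutation p = 0.0031, adjusted 0.0062, rho 0.72 with permutation p = 0.010, adjusted 0.019). The libraries with the lowest sums were Fmr1-/y replicate 4 (7862 CPM), Fmr1-/y replicate 1 (8081 CPM) and wild-type replicate 4 (8095 CPM). These libraries also had the 3 lowest levels of Bdnf, at 35.9, 36.8 and 35.6 CPM, and of Ntrk3, at 61.0, 60.3 and 63.6 CPM in the same order. The highest sum, 10060 CPM, was that of wild-type replicate 1, which had the highest level of both genes. In contrast, wild-type replicate 5 had the second highest sum (9694 CPM) but a low Bdnf (37.4 CPM), and Fmr1-/y replicate 5 had a sum of 8811 CPM but the second highest Bdnf (43.95 CPM). No such relation was computed for the other marker lists. The CA2 and CA3 list had the same extreme libraries as the CA1 list. Its sum was highest in wild-type replicate 1 (256.5 CPM) and lowest in Fmr1-/y replicate 4 (181.7 CPM). The part of the cell composition in this covariation was not tested.

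**Figure D4:**
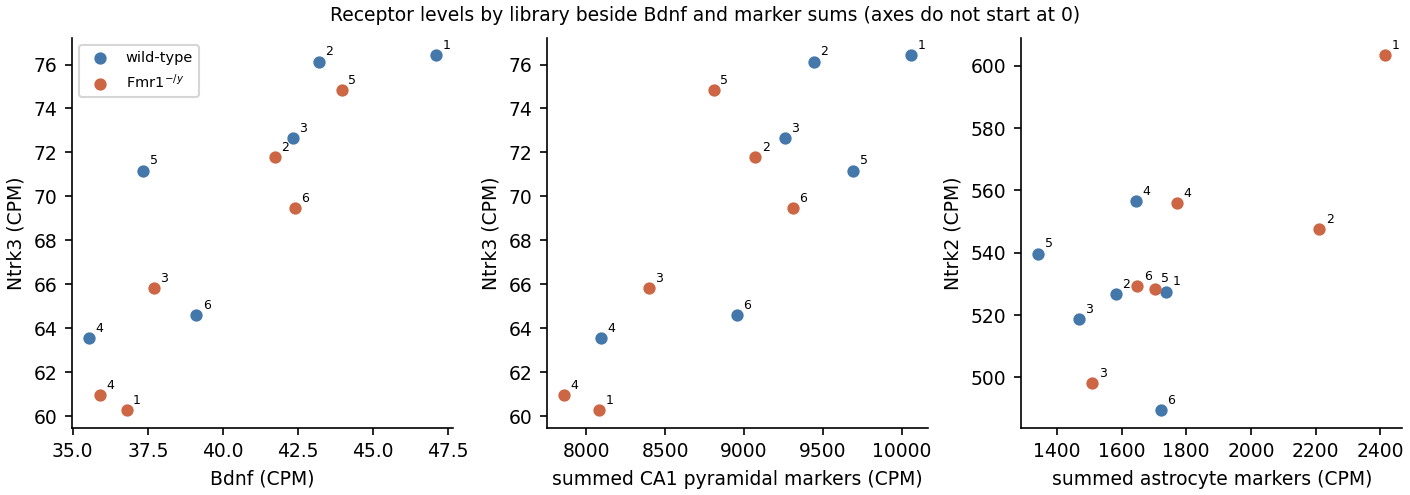
Levels of Ntrk3 against Bdnf (left), of Ntrk3 against the summed CA1 pyramidal markers (middle) and of Ntrk2 against the summed astrocyte markers (right), all in CPM on axes that do not start at 0, with 12 libraries numbered by replicate. Ntrk3 runs from 63.6 to 76.4 CPM in wild-type and from 60.3 to 74.9 CPM in Fmr1-/y libraries, and rises with Bdnf in both genotypes. Fmr1-/y replicate 1 stands at the upper right of the Ntrk2 panel with 603 CPM, and no correlation was computed for this panel.

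For each gene the most similar patterns were sought among the 13767 other genes with at least 1 CPM on average, by Pearson's r of log2 CPM over the 12 libraries. They are the highest of many and carry no test. The nearest to Bdnf was Gfra4, a receptor of the GDNF family (r = 0.92, rho = 0.81), followed by Efhd2, a calcium-binding protein (r = 0.89, rho = 0.88), and Fam84a (r = 0.88, rho = 0.84). Efhd2 was also the nearest to Ntrk3 (r = 0.90, rho = 0.87), before Ppfia2, the presynaptic scaffold liprin-alpha-2 (r = 0.89, rho = 0.85), and Rap1gap (r = 0.88, rho = 0.88). Ntf3 was nearest to Hap1 (r = 0.89, rho = 0.94), Tagln3 (r = 0.89, rho = 0.87) and Rxrg (r = 0.87, rho = 0.87). Ntrk2 was nearest to Itpkb, an inositol trisphosphate kinase (r = 0.92, rho = 0.81), Ctnna1, the adhesion protein alpha-catenin (r = 0.92, rho = 0.92), and the Wnt co-receptor Lrp5 (r = 0.91, rho = 0.87). Sort1 was nearest to Mfsd4 (r = 0.94, rho = 0.89), the postsynaptic scaffold Dlgap4 (r = 0.93, rho = 0.89) and Zyg11b (r = 0.93, rho = 0.91). For Ngfr the nearest were Ehhadh (r = 0.84, rho = 0.66), Hltf (r = 0.83, rho = 0.50) and Adamts5 (r = 0.83, rho = 0.74), with lower rank correlations than for the other genes.

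The rest of the pathway was described with 7 lists of 125 genes, of which 123 passed the filter. No gene of these lists had an adjusted p under 0.05 in edgeR. At an unadjusted p under 0.05 there were 12 lower genes and 1 higher gene in Fmr1-/y, 10.6% of the 123 in either direction, beside 7.96% of all genes tested (3.67% lower and 4.29% higher). These pathway lists were chosen with earlier results of these data known. The shares therefore only describe the lists, and no conclusion on an excess or a direction is drawn from them. Among the marker lists, all 6 CA1 pyramidal markers had a negative log2 fold change (median -0.10). All 8 astrocyte markers (median 0.22) and all 5 endothelial markers (median 0.29) had a positive one. The median was also negative for oligodendrocyte (-0.16), dentate granule (-0.12), GABAergic interneuron (-0.08) and CA2 and CA3 markers (-0.04). It was positive for microglia (0.01), oligodendrocyte precursor (0.10) and mural and fibroblast markers (0.13). The part of the cell composition in the pathway values was not tested. In DESeq2 the lowest adjusted p among the 14 genes named by rule was 0.078, for Spred2. The count of 13 rested in part on single libraries and on scaling: it was 8 without wild-type replicate 1, 6 without wild-type replicate 5, 7 without Fmr1-/y replicate 1, and 8 when libraries were scaled by their totals only. The median log2 fold change over the 123 genes was -0.03.

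**Figure D5:**
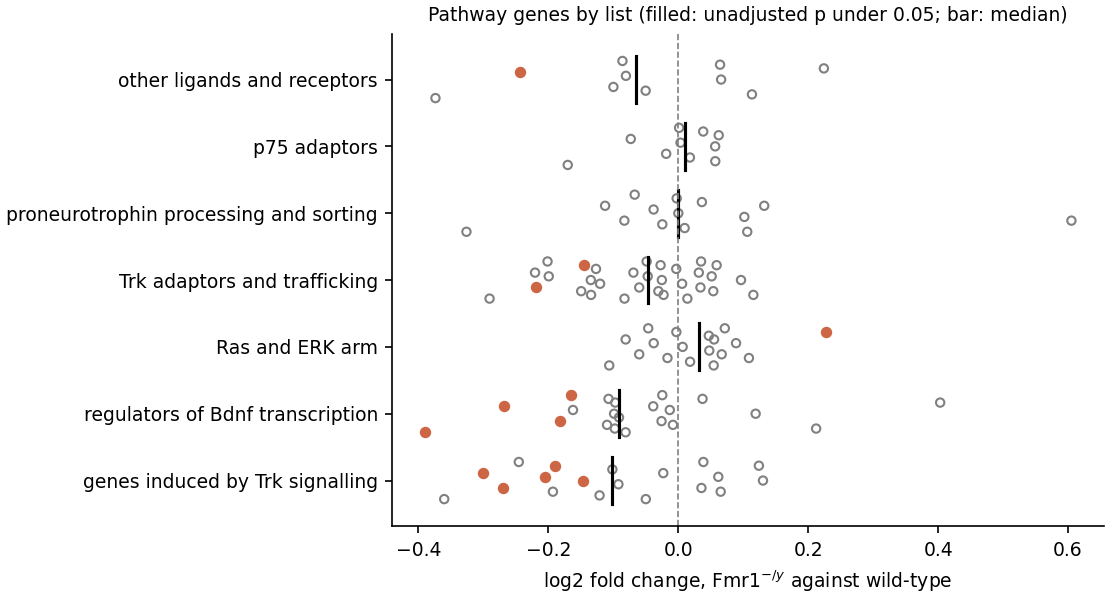
Log2 fold change, Fmr1-/y against wild type, of 123 pathway genes in 7 lists (each point a gene, filled where the unadjusted p is under 0.05, bar at the median of the list). All filled points but 1, Mapk3, lie to the left of 0, and none of the genes has an adjusted p under 0.05.

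Among 10 tested genes of the list of other ligands and receptors, 1 was lower at an unadjusted p under 0.05, beside 3.67% of all genes tested. This was Sorl1, a receptor of the sortilin family. It ran from 126 CPM over 150 CPM to 171 CPM in wild-type libraries and from 113 CPM over 127 CPM to 137 CPM in Fmr1-/y libraries. Only wild-type replicate 6 lay within the range of the Fmr1-/y libraries (log2 fold change -0.24 ± 0.07 SE, unadjusted p = 0.0030, adjusted p = 0.326 in edgeR). The other sorting receptors had smaller differences, with log2 fold changes of -0.10 for Sorcs3, -0.09 for Sorcs2 and 0.06 for Sorcs1, here named after their values were seen. Ntf5, which encodes NT-4 and was also named after its values were seen, had 8 to 73 reads per library.

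The 10 adaptors of p75NTR held no gene at an unadjusted p under 0.05, and their median log2 fold change was 0.01. The smallest p was that of Bex1 (log2 fold change -0.17 ± 0.13 SE, adjusted p = 0.821 in edgeR). The same held for the 14 tested genes of proneurotrophin processing and sorting, with a median of -0.0011. The smallest p there was that of Cpe, carboxypeptidase E, a sorting receptor of pro-BDNF (log2 fold change 0.11 ± 0.10 SE, adjusted p = 0.854 in edgeR).

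Of 31 Trk adaptors and trafficking proteins, 2 were lower at an unadjusted p under 0.05, beside 3.67% of all genes tested, and the median was -0.05. Magi2, a synaptic scaffold, measured 116 ± 9.30 (wild type) and 100.1 ± 9.93 CPM (Fmr1-/y) (SD, n = 6 each; log2 fold change -0.22 ± 0.07 SE, adjusted p = 0.415 in edgeR). Slitrk5, a transmembrane partner of TrkB, was at 90.4% of wild type (adjusted p = 0.595 in edgeR). In the Ras and ERK arm 1 of 18 genes passed an unadjusted p of 0.05, in the higher direction, beside 4.29% of all genes tested. This was Mapk3, the kinase ERK1, at 94.6 ± 10.6 (wild type) and 111 ± 18.3 CPM (Fmr1-/y) (SD, n = 6 each; log2 fold change 0.23 ± 0.10 SE, adjusted p = 0.577 in edgeR). Its highest levels were those of Fmr1-/y replicates 4 and 5.

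Of 21 regulators of Bdnf transcription, 4 were lower at an unadjusted p under 0.05, beside 3.67% of all genes tested. A negative log2 fold change was found in 17, and the median was -0.09, beside 0.0042 over all genes tested. Npas4, an activity-induced factor, ran from 2.93 CPM over 4.14 CPM to 4.67 CPM in wild-type libraries and from 2.07 CPM over 2.95 CPM to 3.81 CPM in Fmr1-/y libraries (log2 fold change -0.39 ± 0.18 SE, adjusted p = 0.596 in edgeR). The co-activators Crebbp and Ep300 were at 83.0% and 88.2% of wild type and the repressor Bhlhe40 at 89.2%, with adjusted p between 0.532 and 0.621 in edgeR. Without wild-type replicate 5 none of these 4 genes had an unadjusted p under 0.05 in edgeR (from 0.0502 for Npas4 to 0.093 for Bhlhe40).

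The 19 genes induced by Trk signalling had 5 lower at an unadjusted p under 0.05, beside 3.67% of all genes tested. In this list 13 had a negative log2 fold change, and the median was -0.10, beside 0.0042 over all genes tested. Spred2, an inhibitor of the Ras and ERK cascade, ran from 47.2 CPM over 57.3 CPM to 64.2 CPM in wild-type libraries and from 38.1 CPM over 46.7 CPM to 51.0 CPM in Fmr1-/y libraries. The groups overlapped through wild-type replicate 6 (log2 fold change -0.30 ± 0.08 SE, unadjusted p = 0.0022, adjusted p = 0.301 in edgeR). Homer1, which encodes a scaffold of group I metabotropic glutamate receptors, was at 86.7% of wild type (adjusted p = 0.349 in edgeR), the transcription factor Egr3 at 90.4% (adjusted p = 0.469) and the phosphatase gene Dusp4 at 87.7% (adjusted p = 0.573). The fifth gene, named after its values were seen, was Nptx2, a secreted pentraxin of excitatory synapses (log2 fold change -0.27, adjusted p = 0.621 in edgeR). Spred2 and Dusp4 restrain the ERK cascade and, like Egr3 and Homer1, were listed here as genes induced by Trk signalling.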

How the data were processed

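RNA bound to HA-tagged ribosomes was sequenced from 12 libraries, grouped by the genotype in their titles. The authors aligned single-end reads of stranded poly-A libraries to mm10 with TopHat2 2.1.1 and UCSC gene models, counted them on the strand of the gene with HTSeq 0.6.1p1, and deposited raw counts without normalization. The filter was that of the study: a gene needed 15 reads summed over all libraries. Genotypes were compared with edgeR 4.0.16 in R 4.3.3 (TMM, quasi-likelihood test, no block, Benjamini-Hochberg adjustment over all genes, threshold 0.05). The study's own test, DESeq2, was run as an alternative (version 1.42.0), with limma 3.58.1. Standard errors are the log2 fold change divided by the square root of F, and 95% intervals use the t quantile of the fit. Log2 CPM has a prior count of 2, and read ratios have 0.5 reads added to each gene. The edgeR fit and the permutation test of the ratios were tested on simulated data.

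The alternatives were other scalings, filters, tests, the replicate number as a block, a threshold of 0.1, and each library left out. The 6 genes, the pathway lists and the marker lists were chosen with earlier results of these data known. Pathway genes named are those past the threshold and up to 4 per list with the smallest unadjusted p under 0.05, or else the smallest p. The 3 most similar genes are named for each gene. Markers of 10 cell types were summed. Astrocyte, CA1 pyramidal and mural markers are given with the results. In wild type and Fmr1-/y the medians of the sums were, in CPM, 218 and 223 for CA2 and CA3, 166 and 145 for dentate granule, 148 and 152 for GABAergic interneuron, 1315 and 1167 for oligodendrocyte, 60.8 and 70.5 for oligodendrocyte precursor, 91.3 and 90.1 for microglia, and 35.0 and 43.8 for endothelial markers. The relations of the CA1 marker sum to Bdnf and Ntrk3 were computed after the values were seen. Depth limits Ngfr and Ntf3 most. Replicates were pools of different mice, and no pair agreed within counting error. Exon lengths and transcripts are from GENCODE M21, which is not the annotation used for counting, and overlapping entries on the same strand exist there for Ntrk2, Ntrk3 and Sort1.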

Additional observations from a re-analysis of the deposited data

Results flagged for a closer look

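Among 20 groups of 6 libraries, 6 genes and 4 read ratios in each genotype, 1 held a library far from the others, where chance gives about 1. In wild-type replicate 4 the number of Ntrk2 reads per 100 Ntrk3 reads was 876, against 690 to 758 in the other wild-type libraries. The gap to the nearest library was 0.635 of the range of the group, above Dixon's 95% critical value for 6 samples. On the log2 scale, on which the ratio was tested, the gap was 0.607 of the range and below that value. This library had the highest Ntrk2 (557 CPM) and the lowest Ntrk3 (63.6 CPM) among wild-type libraries. It also had the lowest sum of CA1 pyramidal markers (8095 CPM) and the highest sums of GABAergic interneuron markers (237 CPM against 114 to 190 CPM in the others), oligodendrocyte (1629 CPM), oligodendrocyte precursor (74.5 CPM), microglia (94.2 CPM) and endothelial markers (41.8 CPM) among wild-type libraries. The astrocyte (1645 CPM), mural and fibroblast (130 CPM), CA2 and CA3 (218 CPM) and dentate granule sums (152 CPM) of this library were not the highest. Its microglia sum was close to those of wild-type replicates 2 (94.0 CPM) and 3 (93.7 CPM). The part of these cells in the ratio was not tested. Without this library the log2 difference of the ratio between the genotypes was 0.17 in place of 0.12 (adjusted p = 0.407 in an exact permutation test over 4 ratios).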

How the results depend on the processing

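In 132 comparisons of the 6 genes with an alternative, no gene passed the threshold and the lowest adjusted p was 0.518, for Sort1 without Fmr1-/y replicate 6. These include an alternative threshold of 0.1, which reuses the main fit, so that direction could not change there. Ntrk2, Ntrk3 and Sort1 kept their direction throughout. Direction turned 12 times, 11 of them with a library left out, where log2 fold changes ran from -0.073 to 0.0088 for Bdnf, from -0.044 to 0.17 for Ntf3 and from -0.15 to 0.14 for Ngfr. The other was Ngfr with libraries scaled by their totals only (log2 fold change 0.026), a scaling that moved the median of all genes by 0.02. Left-out libraries gave -0.13 to 0.21 for the log2 difference of Ngfr to Sort1. Of the 14 pathway genes named by rule none changed direction or passed the threshold in 294 comparisons.

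The number of genes called among all tested was 4 in edgeR, 84 in DESeq2, 1 with at least 10 reads in every library, and 2 to 6 with a library left out (2 without wild-type replicate 4, 5 or 6 or Fmr1-/y replicate 1, 4, 5 or 6). The filter of at least 10 reads in every library leaves out Fmr1 itself, which had at most 1 read in an Fmr1-/y library. The pathway count of 13 was 8 with totals only and 6 to 15 with a library left out. The cause was not tested. Correlations of same-numbered libraries' deviations ran from -0.08 to 0.09 over all genes and from -0.44 to 0.60 over the more abundant genes (mean log2 CPM over 5), and 0 and 2 of 12 libraries correlated best with their own number, so the numbers were not taken to pair the pools. With the replicate block 4 genes were called, the pathway count was 15, and the log2 fold changes were -0.03 for Bdnf, 0.03 for Ntf3, 0.05 for Ntrk2, -0.08 for Ntrk3, -0.09 for Ngfr and -0.11 for Sort1.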
